A study of Mus musculus with 15 samples.

Results

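A83-01 is a small molecule that blocks the kinase of ALK4, ALK5 and ALK7, the type 1 receptors through which TGF-beta, activin and NODAL signal. The samples described here are mouse endometrial organoids from control mice grown with A83-01 or with its vehicle, DMSO. They were chosen by their labels alone and make up 7 of the 15 samples of the series. Of these, 4 were control + A83-01 and 3 were control + vehicle. Organoids are small bodies of epithelium grown in a gel, here Matrigel, from cells of the endometrium. The control mice of both groups carried the genotype Smad2flox/flox; Smad3flox/flox without Cre, so that neither gene was deleted. The medium, per the study's methods, held EGF, FGF10, HGF, a B-27 supplement without vitamin A and conditioned media with WNT3a, R-spondin and noggin, which blocks BMP ligands. The same methods describe adult female mice of a mixed C57BL/6J and 129S5/SvEvBrd background, with estradiol given around weaning to bring Cre activity forward. RNA was taken from organoids of different mice, and each label also carries a number. Vehicle replicates 1, 2 and 3 share their numbers with A83-01 replicates 1, 2 and 3, while A83-01 replicate 4 has a number of its own. Replicates 1 and 2 have lower numbers, close to each other, than replicates 3 and 4, so that the numbers form a low and a high series. Of 16729 genes in the table, 13009 had a mean normalized count of at least 10 over these 7 samples and were tested. The other 3720 were below it.

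In the canonical pathway, a TGF-beta or activin dimer binds a type 2 receptor, which activates a type 1 receptor, which in turn phosphorylates SMAD2 and SMAD3. The SMADs join SMAD4, enter the nucleus and, with partner factors such as AP-1, raise or lower the transcription of many genes, among them matrix genes and the feedback inhibitors *Smad7* and *Pmepa1*. In epithelia the pathway is known for restraint of proliferation and for its part in epithelial to mesenchymal transition, and inhibitors of it are common additions to organoid media. The comparison asks which transcripts of endometrial epithelium changed when the receptors were blocked.

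Values are normalized counts, that is estimated reads per gene divided by a size factor per sample, and they are not scaled to gene length, so that levels are compared between samples and not between genes. They summed to between 20241800 and 24423100 per sample, and between 1308 and 2022 genes per sample were listed at 0. Pearson correlations of log2 values across genes were 0.937 to 0.962 among the vehicle samples, 0.912 to 0.961 among the A83-01 samples and 0.855 to 0.925 between the groups. A principal component analysis put 46.2% of the variance on the first axis, which separated the groups, with vehicle samples at -72.7 to -44.7 and A83-01 samples at 14.2 to 79.6. The second axis held 21.7%, and on it the samples of the high number series lay between -55.0 and -19.4, below the other samples.

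A83-01 changed 295 genes (2.27% of those tested), raising 155 (1.19%) and lowering 140 (1.08%). A gene was called at an adjusted p below 0.01 together with a change of more than 1.4-fold in either direction. At an unadjusted p below 0.05 there were 2882 genes. The changes were large where they were called. Of the genes called higher, 95 rose by at least 4-fold and 41 by at least 16-fold, and of those called lower, 87 fell by at least 4-fold and 38 by at least 16-fold. The median log2 fold change, the difference of the means of log2(normalized count + 1), was 2.61 among genes called higher and -2.53 among genes called lower, against -0.02 over all genes tested. All 295 had groups that did not overlap, against 2829 of the 13009 tested (21.7%), and all 295 moved the same way in the 3 pairs of samples with a shared number, against 6419 of the 13009 (49.3%). The 295 were called on these same samples, so these shares and the medians largely follow from the calling. With the label number as a block the calls numbered 399 (3.07%), and 246 of the 295 remained among them in the same direction. In bulk samples a lower level in each cell and fewer cells with the transcript cannot be told apart.

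**Figure D1:**
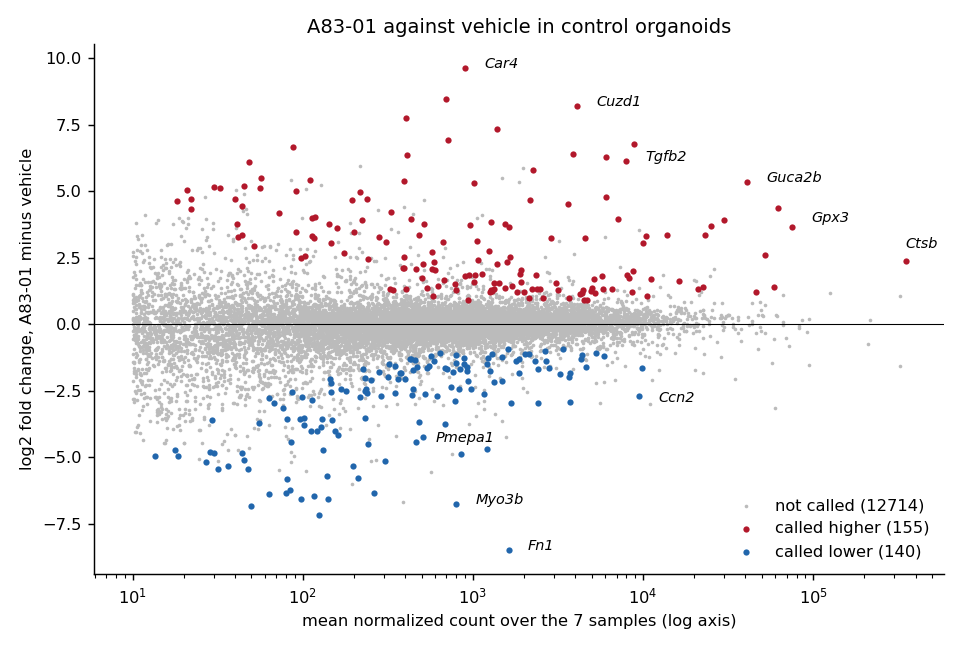
Log2 fold change with A83-01 (A83-01 minus vehicle, on log2 of the normalized count + 1) against the mean normalized count over the 7 control samples (log axis), with 1 point for each of the 13009 genes tested. The 155 genes called higher (red) had a median mean count of 1074 and the 140 called lower (blue) of 413. The called genes with the highest means all rose. The calls reach from *Fn1* at -8.49 to *Car4* at 9.62.

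The number of calls depended on which sample was left out. Without control + vehicle replicate 1, 38 genes were higher and 15 lower, and without control + vehicle replicate 2, 37 were higher and 12 lower. Without control + vehicle replicate 3 the numbers were 87 and 41, without control + A83-01 replicate 3 they were 77 and 63, and without control + A83-01 replicate 4 they were 63 and 53. They were 119 and 130 without control + A83-01 replicate 1, and 158 and 154 without control + A83-01 replicate 2. Each such fit also has a smaller group, which cannot be told apart from a trait of the sample left out. In each of the 7 fits that left out a sample, 40 of the 295 genes were called again in the same direction. Among the genes described below, these were *Tgfb2*, *Cuzd1*, *Akr1b7*, *Akr1c18*, *Hsd11b1*, *Aldh1a2*, *Cyp26a1*, *Gpx3*, *Selenop*, *Csf1*, *Napsa*, *Car4*, *Havcr1*, *Tshr*, *Krt6b*, *Gjb1*, *Defb1*, *Prl6a1*, *Slc46a2*, *Slc17a4*, *4930539E08Rik*, *Fn1*, *Pmepa1*, *Myo3b* and *Chrna1*.

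The targets of the inhibitor were themselves not called. *Tgfbr1*, which encodes ALK5, had normalized counts of 553, 941 and 659 with vehicle and of 283, 852, 640 and 258 with A83-01, a log2 difference of -0.65 ± 0.43 (SE) with an adjusted p of 0.44. *Acvr1b*, which encodes ALK4, read 269, 186 and 286 with vehicle and 205, 167, 129.8 and 143 with A83-01 (log2 difference -0.61 ± 0.28, adjusted p = 0.24). The samples of the groups overlapped for both. *Acvr1c*, which encodes ALK7, was not among the genes analysed here. The signal transducers *Smad2*, at 1335, 1132 and 1045 with vehicle and 970, 1062, 984 and 912 with A83-01, and *Smad3*, at 1532, 1741 and 1599 and 669, 1556, 2003 and 1265, were not called either (adjusted p = 0.41 and 0.60). Their samples overlapped between the groups as well. Of 8 other receptors of the family that were tested, none was called, with a list median of -0.54, and 1, *Acvrl1*, passed as lower with the label number as a block (adjusted p = 0.0163 without it and 0.00651 with it). The type 2 receptor *Tgfbr2* read 9069.9, 9471 and 6813 with vehicle and 4557, 6421, 4911 and 3768 with A83-01 (log2 difference -0.79 ± 0.21, adjusted p = 0.0553).

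Among 12 tested ligands and extracellular antagonists of this branch, 1 rose and 1 fell, where 1.19% of all genes tested were called higher and 1.08% lower. *Tgfb2*, which encodes the ligand TGF-beta 2, read 129, 229 and 235 in the vehicle samples and 9135, 14802, 17364 and 13948 in the A83-01 samples. The A83-01 samples lay close together and all far above the vehicle samples. The mean rose 69.9-fold, a log2 difference of 6.13 ± 0.28 with an adjusted p of 2.5e-05, and of 7.4e-06 with the label number as a block. *Fst* encodes follistatin, a secreted protein that binds activin and holds it from its receptor. It fell from 380.2, 1183 and 247 to 5.22, 17.5, 9.39 and 0, with a log2 difference of -6.36 ± 0.98 (adjusted p = 0.00671). The other 10 tested members, *Tgfb1* and *Tgfb3* among them, were not called.

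Of 20 tested SMADs and intracellular feedback genes, 2 fell and none rose, and 17 of the 20 had a difference below 0. Among all genes tested 1.08% were called lower, and 6666 of 13009 had a difference below 0. *Pmepa1*, whose product binds SMAD2 and SMAD3 and keeps them from the receptor, had 1327, 903 and 821 normalized counts with vehicle and 60.1, 42.1, 28.4 and 55.5 with A83-01. *Smad7*, the inhibitory SMAD that the pathway itself induces, had 191, 194 and 270.3 and 10.4, 14.8, 14.9 and 20.2. For both genes the lowest vehicle sample was several times the highest A83-01 sample. The log2 differences were -4.44 ± 0.33 (adjusted p = 0.000252) and -3.79 ± 0.39 (adjusted p = 0.00132).

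Among genes that textbooks give as induced by TGF-beta, every call was lower. Of 40 listed, 32 were tested, 9 were called lower, against 1.08% of all genes tested, none was called higher, and 30 of the 32 had a difference below 0, with a median of -1.17 against -0.02 over all genes tested. Besides *Pmepa1* and *Smad7* these were *Fn1*, *Has2*, *Pdgfb*, *Ccn2*, *Itga5*, *Tpm1* and *Igfbp3*, the last named after its values were seen. *Fn1* encodes fibronectin, the matrix glycoprotein that cells bind through integrins. It read 1884, 3828 and 5624 with vehicle and 4.64, 10.5, 5.55 and 18.6 with A83-01, so that the mean fell 385-fold (log2 difference -8.49 ± 0.53, adjusted p = 0.000106), and this was the deepest fall of all genes called. *Itga5*, the alpha chain of the main fibronectin receptor, fell from 1306, 1601 and 1733 to 340.2, 385, 259 and 194 (log2 difference -2.43 ± 0.26, adjusted p = 0.00153). *Ccn2*, which encodes connective tissue growth factor, fell from 21655, 23298 and 10750.4 to 2632, 3234, 2988 and 1998 (log2 difference -2.72 ± 0.29, adjusted p = 0.00152). The highest A83-01 sample of each lay far below the lowest vehicle sample. *Pdgfb*, a growth factor chain, went from 303, 364 and 318 to 6.05, 28.4, 39.0 and 19.8. *Has2*, which makes hyaluronan, went from 35.0, 118 and 32.6 to 0, 3.13, 0 and 0, where 3 of 4 A83-01 samples were listed at 0. *Vegfa* and *Cdkn1a* were the only tested members of the list with a difference above 0, and neither was called.

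**Figure D2:**
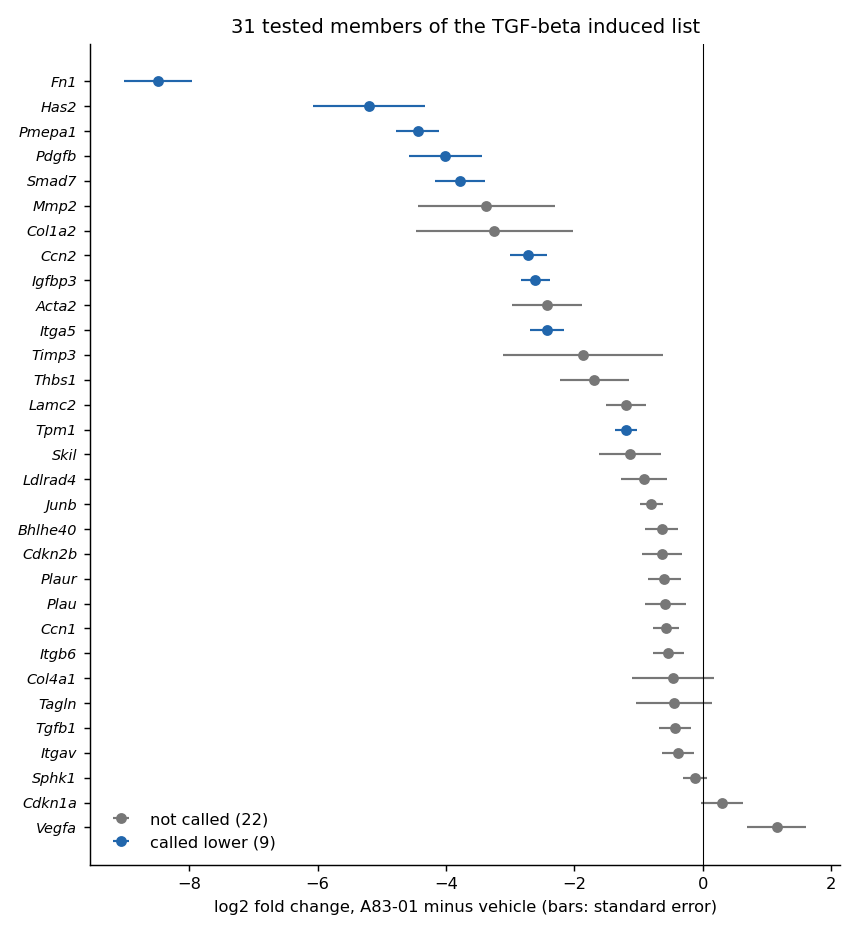
Log2 fold change with A83-01 in control organoids (A83-01 minus vehicle, points, with the standard error as bars) of 31 tested members of the list of TGF-beta induced genes. The 9 genes called lower are blue and the 22 not called are grey, and 29 of the 31 lie left of 0.

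**Figure D3:**
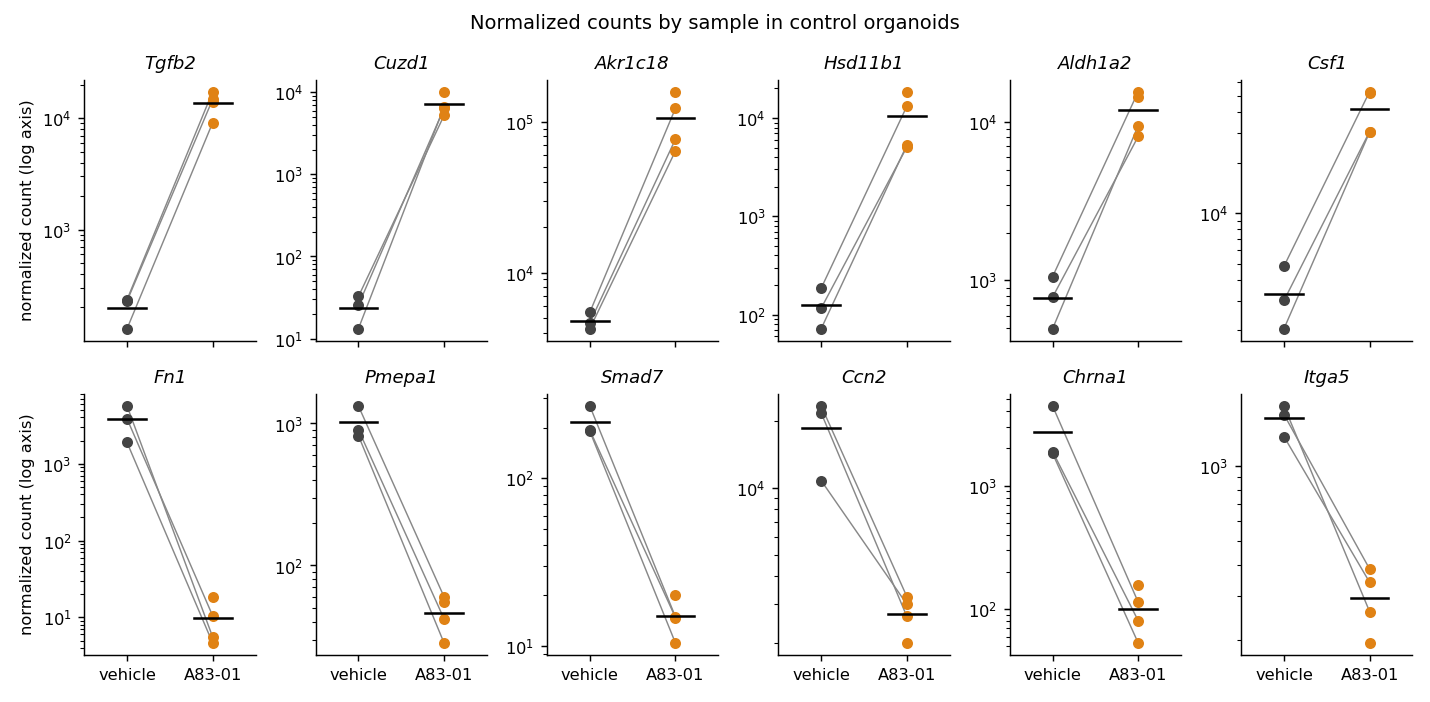
Normalized counts (log axis) of 12 genes in the 3 vehicle samples (dark) and the 4 A83-01 samples (orange) of control organoids. Bars are group means, grey lines join samples that share a label number, and in each of these genes all 3 lines run the same way and the groups do not overlap.

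Among genes of the matrix, its receptors and the cytoskeleton, every call in the fit without a block was lower. Over all genes tested 1.08% were called lower, and 6666 of 13009 had a difference below 0. The lists share some genes, such as *Fn1*. Of 35 tested genes for fibronectin, collagens, laminins and matrix linkers, 3 fell (*Fn1*, *Tnc* and *Lamb1*), none rose and 30 had a difference below 0, with a median of -1.52. With the label number as a block 6 of them fell. *Tnc*, which encodes tenascin C, went from 104, 229 and 104 to 0, 6.41, 0 and 0 (log2 difference -6.37 ± 0.88, adjusted p = 0.00415). *Lamb1*, a laminin chain of basement membranes, went from 3873, 4291 and 5555 to 1008, 1513, 1765 and 1643 (log2 difference -1.64 ± 0.22, adjusted p = 0.00415). *Lamb1* thus kept a sizeable part of its level, while *Tnc* was at 0 in 3 of 4 A83-01 samples. Of 13 integrins, *Itga5* alone was called, with 3 lower under the block. *Itgb1*, the beta chain that pairs with *Itga5*, read 17339, 19860.3 and 13376 and 6945, 11581, 11882 and 9269 (log2 difference -0.78 ± 0.23, adjusted p = 0.0812).

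Of 32 tested genes for actin, contractility and YAP targets, 3 fell, namely *Ccn2*, *Tpm1* and *Actn1*, and 28 had a difference below 0 (median -0.43). The share called lower over all genes tested was 1.08%, and 6666 of 13009 had a difference below 0. *Tpm1*, a tropomyosin that lines actin filaments, went from 9528, 8735 and 7913 to 4756, 3329, 3668 and 3589, and *Actn1*, which crosslinks them, from 3003, 2864 and 2909.6 to 1498, 1251, 1369 and 1259.6. These were modest changes beside those of the matrix genes, with log2 differences of -1.20 ± 0.17 and -1.12 ± 0.14 (adjusted p = 0.00437 and 0.00253). Of 11 tested EMT factors and mesenchymal genes, *Fn1* and *Cdh2* fell. *Cdh2*, which encodes N-cadherin, went from 141, 116 and 51.3 to 1.29, 4.37, 3.78 and 0 (log2 difference -5.11 ± 0.77, adjusted p = 0.00618), and with the label number as a block it did not pass (adjusted p = 0.0111). Of 28 matrix proteases and their inhibitors, *Adam12*, a membrane metalloproteinase, and *Mmp11*, or stromelysin 3, fell. With the label number as a block 1 member of this list was called higher and 2 lower. *Adam12* read 163, 289 and 122 with vehicle and 1.03, 14.6, 0 and 0 with A83-01, and *Mmp11* read 193, 238 and 147 and 25.6, 35.6, 18.5 and 35.2 (log2 differences -6.25 ± 0.99 and -2.73 ± 0.38, adjusted p = 0.00767 and 0.00446).

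Other genes with the largest falls came from many families. *Myo3b*, which encodes a class III myosin of actin protrusions, went from 1268, 1959 and 2251 to 5.78, 40.8, 20.4 and 10.4 (log2 difference -6.78 ± 0.58, adjusted p = 0.000549). *Chrna1*, the alpha 1 subunit of the nicotinic acetylcholine receptor, went from 1884, 1817 and 4403 to 80.5, 53.1, 114 and 157 (log2 difference -4.71 ± 0.43, adjusted p = 0.000712). For both the lowest vehicle sample lay far above the highest A83-01 sample. *Dbn1*, the actin-binding drebrin, read 435, 528 and 482 and then 17.5, 14.8, 2.13 and 5.57, and *Tnnt2*, cardiac troponin T, 117, 187 and 247 and then 0, 2.46, 3.05 and 0.598. *Kcng1*, a potassium channel subunit, read 104, 150.5 and 551 with vehicle and 3.31, 0.979, 0.848 and 0.907 with A83-01. *Slc6a2*, the noradrenaline transporter, read 116, 136 and 95.3 with vehicle and 0 in each of the 4 A83-01 samples, so no fold is given. *Spink12*, a Kazal-type protease inhibitor, read 337, 377 and 149.6 and then 0, 11.3, 0 and 0, with A83-01 replicate 2 as the only A83-01 sample above 0. *Clic6*, *Cyp21a1*, *Gper1*, *Ror2* and *Etnppl* were also among the 15 deepest falls of genes with a vehicle mean of at least 100, with log2 differences between -6.58 and -5.43. *Cyp21a1* encodes steroid 21-hydroxylase and has near-identical copies in mouse, so that its reads may be shared among them.

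*Cuzd1* had the lowest adjusted p of all genes in the fit without a block. Of 30 tested gland secretory and implantation genes, 4 rose and none fell (6 and none with the block), while 17 of the 30 had a difference below 0 (median -0.10). The share called higher over all genes tested was 1.19%, and 6666 of 13009 had a difference below 0. *Cuzd1*, which encodes a secreted protein with CUB and zona pellucida domains that the uterine epithelium makes under estrogen, read 25.7, 32.6 and 13.2 with vehicle and 6392, 5231, 6655 and 10201 with A83-01. The mean rose 299-fold, a log2 difference of 8.21 ± 0.33 (adjusted p = 1.8e-05 without the block and 9.4e-05 with it). *Napsa*, the aspartic protease napsin A, rose from 32.5, 72.0 and 172 to 5942, 3735, 6355 and 10779.9 (log2 difference 6.38 ± 0.53, adjusted p = 0.000431). *Csf1*, the macrophage colony-stimulating factor that the uterine epithelium is known to make in pregnancy, rose from 2047, 3014 and 4823 to 30379.9, 30577, 52939 and 51989 (log2 difference 3.69 ± 0.33, adjusted p = 0.000648). *Prss29*, an implantation serine protease, was listed at 0 in all 3 vehicle samples and read 16.3, 123, 157 and 322 with A83-01 (adjusted p = 0.00469), so no fold is given. In all 4 genes every A83-01 sample was above every vehicle sample, and the A83-01 samples of *Prss29* spread the most. Other secretory genes of the list did not pass. *Muc1* read 14749, 12329 and 11296 and 16966, 11979.8, 8030.1 and 9248, and its groups overlapped (adjusted p = 0.72).

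Of 21 tested steroid, lipid and aldo-keto enzymes, 4 rose, none fell and 17 had a difference above 0 (median 0.54). The same was so for 6343 of all 13009 genes tested, of which 1.19% were called higher and 1.08% lower. With the label number as a block 5 were called higher and 2 lower. *Akr1c18* encodes the 20-alpha-hydroxysteroid dehydrogenase that inactivates progesterone. It read 4650.2, 4247 and 5452 with vehicle and 76600, 64012, 122655 and 158226 with A83-01, a 22-fold rise of the mean (log2 difference 4.38 ± 0.31, adjusted p = 0.0002). *Hsd11b1*, which regenerates active glucocorticoid, rose from 71.8, 116 and 186 to 5309, 5072, 13198 and 18598 (log2 difference 6.27 ± 0.50, adjusted p = 0.000354). *Akr1b7*, an aldo-keto reductase, rose from 0, 2.68 and 5.31 to 618, 482, 1819.5 and 1946 (log2 difference 8.47 ± 0.73, adjusted p = 0.000549). *Cyp17a1*, the enzyme on the path to androgens, was listed at 0 in all 3 vehicle samples and read 25.1, 17.6, 34.5 and 68.2 with A83-01 (adjusted p = 0.00498), and with the label number as a block it did not pass (adjusted p = 0.0112). For each of these genes every A83-01 sample was above every vehicle sample, and in all 4 genes A83-01 replicates 3 and 4, of the high number series, were the highest. *Akr1c18* and *Akr1b7* belong to clusters of related genes whose reads may be shared. Of 28 tested steroid receptors and estrogen-responsive genes, *Sgk1*, a kinase induced by glucocorticoids, rose from 2069, 1506 and 1698 to 3456, 4494, 5000.4 and 4051 (log2 difference 1.27 ± 0.18, adjusted p = 0.00467), and *Gper1*, a membrane receptor said to bind estrogen, fell from 170.1, 220.1 and 161 to 3.70, 1.11, 10.5 and 0 (log2 difference -5.81 ± 0.82, adjusted p = 0.00464).

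Retinoid genes held 5 rises. Of 28 tested, 5 rose, none fell and 17 had a difference above 0 (median 0.24). Over all genes tested 1.19% were called higher, and 6343 of 13009 had a difference above 0. *Aldh1a2*, which makes retinoic acid from retinal, rose from 785, 496 and 1056 to 8102, 9479.6, 15539 and 14326 (log2 difference 3.94 ± 0.31, adjusted p = 0.000312). *Cyp26a1*, which breaks retinoic acid down, rose from 23.6, 8.50 and 7.60 to 469, 232, 334 and 283 (log2 difference 4.66 ± 0.46, adjusted p = 0.00105). *Lrat*, which stores retinol as an ester, rose from 632, 561 and 1202 to 4356, 6878, 9918 and 8415 (log2 difference 3.23 ± 0.34, adjusted p = 0.0014). Synthesis, breakdown and storage enzymes thus rose in the same samples. *Rdh12* and *Rdh11*, which reduce or oxidise retinoids, rose from 69.8, 20.9 and 71.1 to 1317, 893, 6712 and 6658 and from 2702, 2017 and 2114 to 6675, 4758, 10372 and 11361 (log2 differences 5.81 ± 0.78 and 1.79 ± 0.30, adjusted p = 0.00389 and 0.00933). The remaining 23 tested members, receptors and binding proteins among them, were not called.

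Transport genes moved both ways. Of 40 tested carbonic anhydrases and channels for chloride, bicarbonate and water, 2 rose and 1 fell, and 24 had a difference below 0. Shares over all genes tested were 1.19% called higher and 1.08% called lower, and 6666 of 13009 had a difference below 0. *Car4*, a membrane-bound carbonic anhydrase, read 0, 0 and 1.78 with vehicle and 624, 452, 1390.3 and 3832 with A83-01. Its log2 difference of 9.62 ± 0.75 was the largest rise of all (adjusted p = 0.000307), on a vehicle level at or under 3 counts in every sample, so the fold depends on the pseudocount, as do those of *Akr1b7* and *Slc46a2*. *Aqp8*, a water channel, rose from 10445, 10792 and 20208 to 83586, 59178, 81671 and 101736 (log2 difference 2.61 ± 0.29, adjusted p = 0.00178). *Clic6*, a chloride channel family member, fell from 120.2, 261 and 591 to 8.80, 2.15, 0.929 and 0 (log2 difference -6.58 ± 0.87, adjusted p = 0.0035). With the label number as a block 3 members rose and 4 fell.

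The called genes with the highest mean over the 7 samples, a choice that favours genes that are high with A83-01, included several not yet described. *Ctsb*, the lysosomal protease cathepsin B, went from 98672, 80624 and 131151 to 555556, 386329, 473812 and 728789, a 5.18-fold rise (log2 difference 2.36 ± 0.34, adjusted p = 0.00498). *Gpx3*, the secreted glutathione peroxidase, went from 9908, 11445 and 8141 to 155980, 129110.3, 88109 and 124077, a 12.6-fold rise (log2 difference 3.64 ± 0.24, adjusted p = 0.000145). *Guca2b*, which encodes uroguanylin, went from 786, 808 and 2108 to 32353, 9171, 93413 and 146982 (log2 difference 5.35 ± 0.85, adjusted p = 0.0077). The A83-01 samples of *Guca2b* differed among themselves by more than the vehicle samples did, with replicate 2 lowest and replicate 4 highest. *Fcna*, the lectin ficolin A, and *Abcb1b*, a drug efflux pump with a close relative in the genome, rose from 1925, 1619 and 7569 to 30524, 23771, 56116 and 87714 and from 4254, 3044 and 3173 to 18947, 29515, 52869 and 51344. *Itm2b* and *Gng12* rose by less, with log2 differences of 1.41 ± 0.23 and 1.2 ± 0.18 (adjusted p = 0.00907 and 0.00594). The 155 genes called higher made up 1.45% to 1.83% of all normalized counts with vehicle and 6.0% to 9.44% with A83-01, and the 140 called lower 1.04% to 1.16% and 0.259% to 0.324%. These shares follow from how the genes were called.

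Further genes among the largest or best supported rises had varied roles. *Selenop*, the plasma carrier of selenium, went from 1852, 1633 and 1549 to 17917, 20846, 13994 and 15255 (log2 difference 3.33 ± 0.18, adjusted p = 4.5e-05). *Krt6b*, a keratin of stratified epithelia, went from 139, 126 and 171 to 2508, 2119.6, 1628 and 2208 (log2 difference 3.85 ± 0.21, adjusted p = 4.5e-05). *Tshr*, the thyrotropin receptor, went from 47.1, 43.4 and 37.0 to 1380.2, 1305, 1867 and 2451 (log2 difference 5.29 ± 0.27, adjusted p = 4.3e-05). In these genes the samples within each group lay close together. *Havcr1*, a cell surface receptor for phosphatidylserine known from injured kidney tubules, rose from 131, 69.8 and 250.1 to 11599, 9849, 19279 and 20989 (log2 difference 6.79 ± 0.43, adjusted p = 0.000106). *Nptx1*, neuronal pentraxin 1, rose from 18.4, 29.6 and 1.78 to 739, 1189, 4079 and 3694, and *Ugt2b34*, a glucuronosyltransferase of a family of close paralogs, from 4.86, 2.62 and 15.4 to 284, 411, 2214 and 2098. *Slc46a2*, a transporter first described in thymic stroma, rose from 0, 3.56 and 1.78 to 193, 218, 1042 and 1370.3. For these last genes A83-01 replicates 3 and 4 were each above both replicates 1 and 2. *Defb1*, a beta-defensin, *Prl6a1*, a member of the prolactin family, *Slc17a4*, an anion transporter, *Trpv2*, a cation channel, and *4930539E08Rik* rose by log2 differences of 4.22 ± 0.27, 3.35 ± 0.19, 5.36 ± 0.52, 5.42 ± 0.81 and 6.34 ± 0.45.

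Of 36 tested WNT ligands, receptors and feedback genes, 5 fell, 1 rose and 32 had a difference below 0 (median -0.87). Over all genes tested 1.19% were called higher and 1.08% lower, and 6666 of 13009 had a difference below 0. *Ror2*, a receptor for WNT5A, fell from 197, 354 and 393.1 to 1.25, 2.26, 5.84 and 20.5 (log2 difference -5.72 ± 0.77, adjusted p = 0.00384). *Tcf7l1*, a transcription factor of the pathway, fell from 131, 174 and 260.4 to 4.86, 15.6, 7.83 and 4.70 (log2 difference -4.44 ± 0.53, adjusted p = 0.00216). The ligand *Wnt9a* and the frizzled receptors *Fzd10* and *Fzd3* fell by log2 differences of -3.57 ± 0.56, -3.53 ± 0.47 and -2.55 ± 0.42, and *Fzd3* did not pass with the label number as a block (adjusted p = 0.013). The ligand *Wnt5b* rose from 4.89, 18.3 and 20.7 to 146, 113, 159.9 and 179 (log2 difference 3.46 ± 0.51, adjusted p = 0.00572), which also did not pass with the block (adjusted p = 0.0104). The members that moved were thus receptors, ligands and a transcription factor, and no feedback gene of the list was called.

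Of 17 tested BMP ligands, antagonists and *Id* genes, *Id4* alone was called, and 10 had a difference above 0 (median 0.32). With the label number as a block 2 members were called higher and 1 lower. Over all genes tested 1.19% were called higher and 1.08% lower without the block, and 6343 of 13009 had a difference above 0. *Id4*, an inhibitor of basic helix-loop-helix factors, rose from 12.7, 18.2 and 4.55 to 258, 239, 134 and 128 (log2 difference 4.00 ± 0.52, adjusted p = 0.00327). *Bmp1*, a procollagen protease, read 2249, 2313 and 3663 and 1085, 1086, 1198 and 1797 and passed as lower only with the label number as a block (adjusted p = 0.032 without it and 0.00584 with it). Of 12 EGF family ligands and receptors, *Lrig1*, which restrains EGF receptors and marks epithelial progenitors, fell from 6786, 6239 and 6145 to 2471, 3886, 2999.9 and 2340 (log2 difference -1.16 ± 0.19, adjusted p = 0.00964), and with the block it did not pass (adjusted p = 0.0123). Of 22 progenitor and organoid stem genes, *Tnfrsf19* rose from 655, 619.6 and 1001 to 2332, 2336, 3019 and 3366 (log2 difference 1.88 ± 0.22, adjusted p = 0.00205) and *Ephb2*, an ephrin receptor, fell from 263, 240.3 and 304 to 21.3, 47.0, 15.9 and 5.35 (log2 difference -3.87 ± 0.62, adjusted p = 0.00816). None of 16 Notch genes and none of 14 FGF and HGF receptors and signals was called, where *Hes1* read 889, 1018 and 1025 and 791, 952, 1015 and 882. Of 24 tested immediate early and AP-1 genes, *Fos*, a subunit of AP-1, fell from 2581, 2178 and 2381 to 719, 515, 389.9 and 536 (log2 difference -2.17 ± 0.22, adjusted p = 0.0011), and *Dusp4*, a MAP kinase phosphatase, fell from 433, 569.6 and 533 to 167, 193, 179 and 188 (log2 difference -1.48 ± 0.21, adjusted p = 0.00464).

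Calls among cell cycle genes were near the share over all genes tested (2.27%). Of 44 S phase and mitosis genes, all of which were tested, *Rrm2* rose and none fell. The difference was above 0 for 36 of the 44, with a median of 0.22, against 6343 of all 13009 genes tested. *Rrm2*, the regulated subunit of ribonucleotide reductase, went from 2799, 3009 and 3895 to 10112, 8056, 15224 and 13580.4 (log2 difference 1.83 ± 0.24, adjusted p = 0.00348), while its partner *Rrm1* read 2712, 2678 and 3900.2 and 3080.3, 3019, 3362 and 3316 (log2 difference 0.07 ± 0.17, adjusted p = 0.87). *Cdc20*, an activator of the anaphase-promoting complex, read 2325, 2231 and 3119.8 and 4425, 2723, 3322 and 4195 (adjusted p = 0.20). Of 31 cytostatic and G1 regulators, *Klf9* rose from 310.4, 297 and 249 to 848, 755, 622 and 697 (log2 difference 1.35 ± 0.19, adjusted p = 0.00494). The cell cycle inhibitor *Cdkn1a*, a classic TGF-beta target, read 9204, 6017 and 5507 and 14401, 6265, 5615 and 9331, and its groups overlapped (adjusted p = 0.66).

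Calls among genes of epithelial junctions were likewise near the 2.27% over all genes tested. Of 48 tested genes for epithelial junctions and simple keratins, *Gjb1*, the gap junction protein connexin 32, alone was called. Yet 39 of the 48 had a difference below 0, against 6666 of all 13009 genes tested. Groups did not overlap for 18 of the 48, which was so for 21.7% of all genes tested. *Gjb1* rose from 281, 196 and 169.9 to 2626, 1903, 2988 and 3286 (log2 difference 3.64 ± 0.25, adjusted p = 0.000145). *Krt8*, *Krt18* and *Krt7*, the simple keratins, had log2 differences of -0.65 ± 0.27, -0.11 ± 0.28 and -0.30 ± 0.30 and did not pass (adjusted p = 0.20, 0.87 and 0.63). Of 24 basal and squamous genes, *Krt6b* and the serine protease *Tmprss11a* rose, and *Lor*, which encodes loricrin, and the serine protease *Tmprss11d* fell. *Lor* read 406, 336 and 636 and then 94.7, 67.1, 61.7 and 72.3, *Tmprss11d* 219.5, 281 and 836 and then 18.4, 14.1, 5.39 and 3.09, and *Tmprss11a* 5.79, 5.22 and 3.60 and then 36.8, 109, 213 and 131. *Tmprss11a* did not pass with the label number as a block (adjusted p = 0.0127). None of 14 tested transcription factors of the Mullerian duct, 4 mucins, 13 motile cilia genes, 32 cholesterol genes and 18 prostaglandin genes was called. Of 34 chemokines and cytokines *Csf1* alone was called, of 35 interferon-stimulated genes *Ifitm1* fell (500, 221 and 309.8 to 59.5, 59.1, 65.3 and 40.7, adjusted p = 0.00441), and of 38 stress genes *Egln3*, an oxygen-sensing hydroxylase, rose (1154, 922 and 1386 to 2987, 2215, 2970.4 and 2307, adjusted p = 0.00875). Yet 21 of the 35 interferon-stimulated genes had a difference above 0 (median 0.48), against 6343 of all 13009 genes tested. With the label number as a block 2 of the interferon-stimulated genes were called higher and 1 lower.

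**Figure D4:**
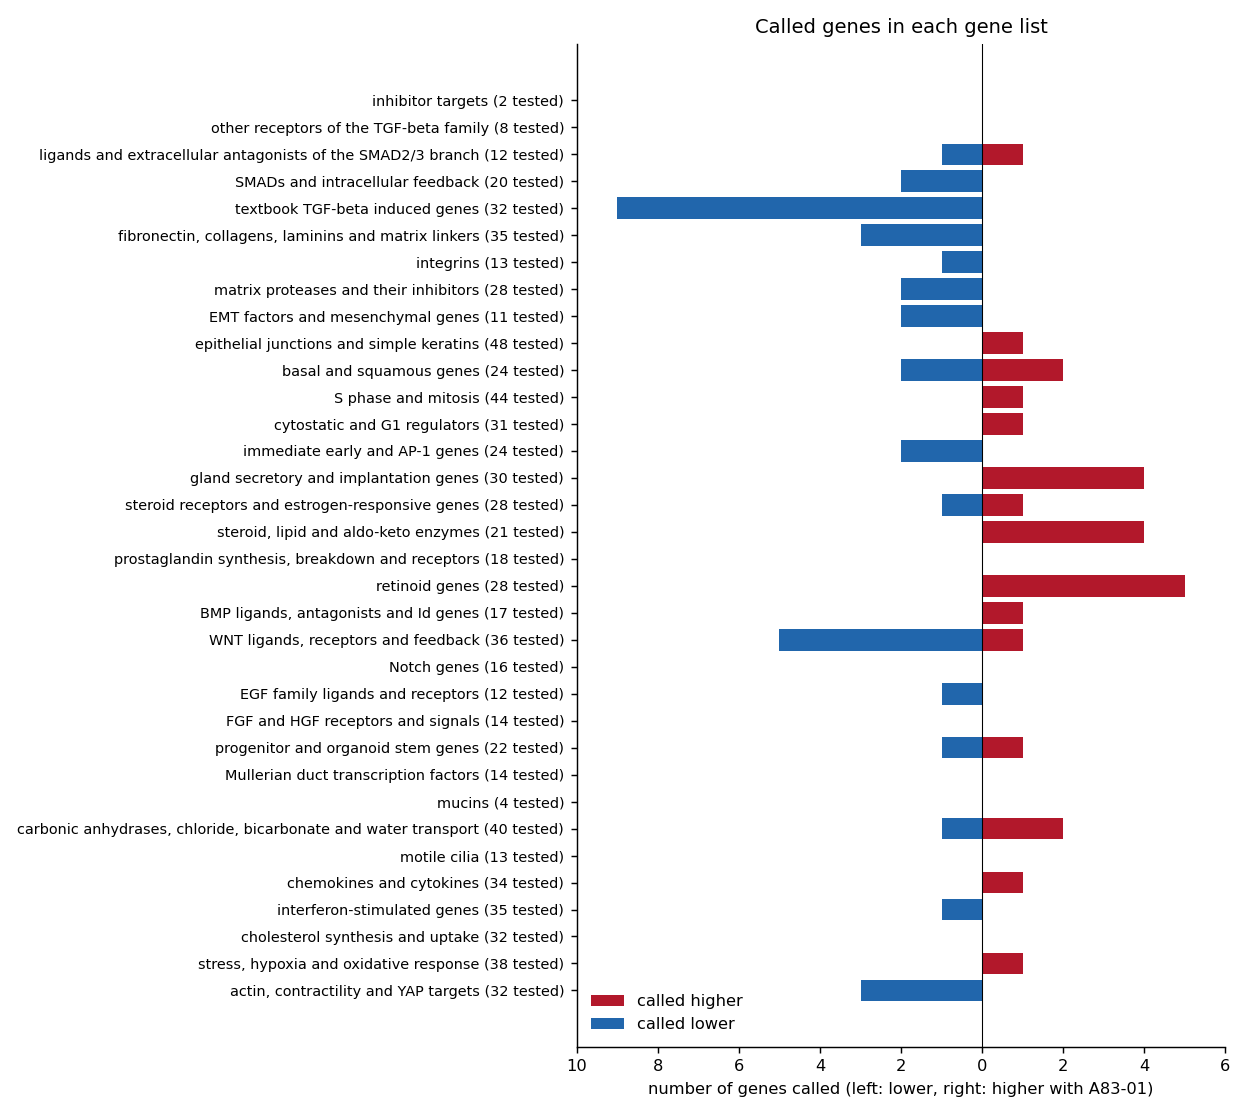
Number of genes called lower (bars to the left, blue) and higher (bars to the right, red) with A83-01 in control organoids in each gene list, with the number of tested members beside its name. The list of TGF-beta induced genes has 9 lower and none higher, and the retinoid list has 5 higher and none lower.

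Marker lists were read to see which cells the cultures held. All 15 uterine epithelial markers were tested and none was called, while 1, *Wnt7b*, passed as lower with the label number as a block (adjusted p = 0.0152 without it and 0.00688 with it). Their summed normalized counts ran from 203223 to 248961 with vehicle and from 146246 to 214071 with A83-01. *Epcam*, *Cdh1* and *Krt8* were highly counted in every sample, the lowest value being 5583 for *Cdh1*, while the progenitor marker *Lgr5* read 13.6, 21.4 and 0 with vehicle and 17.1, 17.8, 15.5 and 16 with A83-01. Of 15 stroma and fibroblast markers 4 were tested and none was called, with sums of 1328 to 2621 and 3045 to 5414. Nearly all of this was *Nt5e*, and without it the sums were 113 to 236 and 26.5 to 188. Of the defining collagen genes, *Col1a1* read 15.4, 34.7 and 2.65 with vehicle and 0 in each A83-01 sample, and *Col3a1* read 4.86, 43.0 and 0 and 0, 0, 2.09 and 0. Other stromal markers went both ways. *Mfap5* read 20.1, 19.5 and 12.6 with vehicle and 3.76, 2.55, 0 and 2.66 with A83-01. *Dcn* read 18.4, 19.4 and 0 and 2.53, 0, 0.923 and 0. *Col1a2*, which was tested, read 42.2, 70.5 and 11.4 and 19.9, 0, 6.63 and 0. The other 3 of the 4 tested, *Nt5e* among them, had a difference above 0. *Col6a3* read 14.6, 16.2 and 68.1 with vehicle and 27.2, 15.1, 163 and 19.1 with A83-01. *Pdgfra* read 11.9, 21.4 and 13.3 and 13.2, 54.7, 14.3 and 4.79. Of smooth muscle, endothelial and mesothelial markers 3, 3 and 2 were tested and none was called. Smooth muscle sums were 132 to 290.5 and 79.7 to 159, endothelial sums 45.1 to 57.9 and 53.2 to 78.7, and mesothelial sums, nearly all from *Msln*, 10634 to 31310.3 and 9849 to 17122.

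Of 15 leukocyte markers 6 were tested. Their sums were higher with A83-01, at 3423 to 8811 against 1332 to 2979, and nearly all of each sum was *Cd68*, which encodes a lysosomal protein of macrophages and some other cells. *Cd68* read 1916, 1180 and 2474 with vehicle and 5018, 3024, 5162 and 8115 with A83-01, and the pan-leukocyte gene *Ptprc* 12.5, 17.4 and 38.5 and 68.5, 136, 236 and 230.5. Neither passed without the label number as a block (adjusted p = 0.034 and 0.019), and both passed with it (adjusted p = 0.00311 and 0.00716). The markers *C1qa* and *Itgax* were listed at 0 in all 7 samples, *C1qb* was above 0 in 1 sample, at 2.65, and *Adgre1* read at most 9.01. The macrophage marker *Csf1r* was counted in every sample, at 166, 58.0 and 384 and 149, 242, 473 and 412 (adjusted p = 0.46). *Cd79a* read 0, 3.59 and 0.895 with vehicle and 7.55, 4.37, 15.2 and 45.8 with A83-01. *Itgam* read 8.07, 13.2 and 37.6 and 0, 11.1, 2.37 and 2.33. *Lyz2* read 70.8, 54.3 and 41.2 with vehicle and 15.1, 5.39, 6.57 and 5.24 with A83-01, a difference of -2.72 ± 0.56. Without *Cd68* the sums were 152 to 505 and 249.6 to 734, and the part of leukocytes in the rise of *Ctsb*, *Csf1* or *Cd68* was not tested.

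The called genes were chosen on these same samples, so the pairs are given as a description. In the 3 pairs with shared numbers the median log2 ratio of A83-01 to vehicle over genes called higher was 2.49 for replicate 1, 2.43 for replicate 2 and 2.41 for replicate 3, and over genes called lower -2.42, -2.15 and -2.56. For 186 of the 295 genes the 3 ratios lay within 1 log2 unit of each other, and for 44 they spanned over 2 log2 units. *Tgfb2* had pair ratios of 6.14, 6.01 and 6.20 and *Akr1c18* of 4.04, 3.91 and 4.49, so that for these genes the pairs differed little beside the size of the change. *Guca2b* had pair ratios of 5.36, 3.50 and 5.47 and *Rdh12* of 4.22, 5.35 and 6.54, and here the pairs differed by over 1 log2 unit.

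Within the A83-01 group, many of the called genes split by the series of the label numbers. Replicates 3 and 4, of the high series, both lay above replicates 1 and 2 in 78 of the 155 genes called higher (50.3%), against 17.0% of all genes tested, and below them in 44 of the 140 genes called lower (31.4%), against 17.7% of all tested. Vehicle replicate 3, also of the high series, was the highest vehicle sample in 71 of the 155 called higher (45.8%) and in 54 of the 140 called lower (38.6%), against 32.6% of all tested. The labels do not say what the numbers stand for. With the series as a covariate the calls numbered 231 higher and 212 lower, among them 290 of the 295.

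The response to A83-01 was set against that in *Smad2/3* cKO organoids, whose genotype Smad2flox/flox; Smad3flox/flox-Ltfcre/+ adds Cre expressed from the lactoferrin gene of the epithelium, with 4 vehicle and 4 A83-01 samples. The A83-01 comparisons of the genotypes share no sample. In the cKO organoids limma called none of 12998 genes with A83-01, and 554 had an unadjusted p below 0.05. The difference between the genotypes was called for 72 of 13066 genes (0.551%), of which 57 were genes called higher and 13 were genes called lower in control organoids. The test of the difference holds the same control samples as those calls, so this overlap is partly built in. Of the 155 genes called higher in control organoids, the median log2 fold change with A83-01 in cKO organoids was 0.28, with 137 above 0. Of the 113 genes called lower that were tested in the cKO, it was -0.32, with 85 below 0. With the label number as a block no difference was called, in a fit where the cKO groups hold 1 pair of shared numbers. The gene-level values of *Smad2* and *Smad3* in cKO organoids, with means of 875 and 1576 with vehicle, do not separate the deleted exons and so do not check the deletion.

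The number of called differences also depended on the sample left out. It was 39 without control + vehicle replicate 2, 46 without control + A83-01 replicate 4, 44 without cKO + A83-01 replicate 3 and 45 without cKO replicate 4. The highest number was 77, without control + A83-01 replicate 2 and without cKO replicate 3. Levels in the cKO samples are given beside those of the control organoids for the genes with the best supported differences. *Tshr* had a mean of 42.5 in control + vehicle and 1751 in control + A83-01, and of 4157 and 4388 in the cKO without and with A83-01. The difference of the effects was 5.20 ± 0.32 on the log2 scale (adjusted p = 9.9e-07). *Tgfb2* had means of 197 and 13812 in control and 23610.3 and 29471 in cKO organoids, a difference of 5.77 ± 0.44 (adjusted p = 9.8e-06). The cKO samples were thus high in both genes without the inhibitor. *Akr1c18* had means of 4783, 105373, 114347 and 120746 in the same order, and *Havcr1* of 150.2, 15429, 17634 and 21195, with differences of 4.31 ± 0.40 and 6.38 ± 0.59. *4930539E08Rik* had a difference of 6.65 ± 0.55 (adjusted p = 1.6e-05). On the falling side, *Fn1* had means of 3779 and 9.81 in control and 9.91 and 13.7 in cKO organoids, a difference of -9.61 ± 1.10 (adjusted p = 0.000298). *Chrna1* had 2701, 101, 44.3 and 44.2 (difference -4.71 ± 0.56, adjusted p = 0.000399), and *Slc6a2* and *Kcng1* were listed at 0 in all 8 cKO samples. *Gstm7*, a glutathione S-transferase, fell from 1035, 944 and 1504 to 515, 381, 279 and 276 in control organoids (adjusted p = 0.00855, and 0.0183 with the block) and had cKO means of 113 and 197. *Pmepa1* and *Smad7* had cKO means of 72.7 and 44.1 without A83-01 and of 7.17 and 9.78 with it, and for them no difference between genotypes was called (adjusted p = 0.53 and 0.29).

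**Figure D5:**
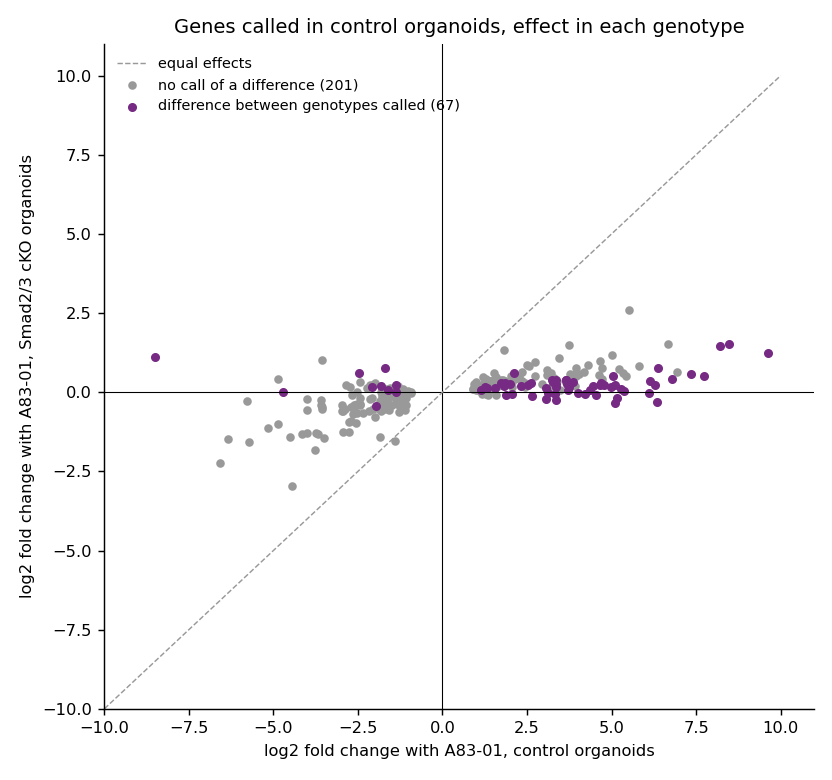
Log2 fold change with A83-01 in *Smad2/3* cKO organoids against that in control organoids, with 1 point for each of the 268 genes called in control organoids and tested in both. Purple points are the 67 with a called difference between genotypes, and the cKO values run from -2.95 to 2.61 while the dashed line marks equal effects.

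Promoters of called genes were searched for the short box that SMAD3 and SMAD4 are known to bind, CAGAC or its complement GTCTG, and for the AP-1 site TGANTCA, which reads alike on both strands. The windows, 250 bases before to 50 after the start of a transcript, are RefSeq sequences on GRCm38.p6, and 220 of the 295 called genes were matched by symbol. Among windows of full length the SMAD box was in 67 of 131 (51.1%) for genes called lower and 81 of 161 (50.3%) for genes called higher, against 47.4% of 12720 for the genes tested and 49.6% of 32851 for all genes. The AP-1 site was in 17 of 131 (13.0%) for genes called lower and 7 of 161 (4.35%) for genes called higher, against 5.42% for the genes tested and 7.81% for all. These are descriptions of letters in windows, some of which share a gene. The 4 windows shown were chosen after the values were seen, from genes with a large fall (*Chrna1*, *Ror2*) and a large rise (*Tgfb2*, *Cuzd1*), to show where the matches lie, which are in capitals. That of *Chrna1* is at chr2:73580289-73580588 on the minus strand, with boxes starting 187 and 137 bases and an AP-1 site 211 bases before the start. That of *Ror2* is at chr13:53286075-53286374 on the minus strand, with an AP-1 site 90 bases before the start. That of *Tgfb2* is at chr1:186705940-186706239 on the minus strand, with boxes 221 and 204 bases before it, and that of *Cuzd1* is at chr7:131322243-131322542 on the minus strand, with a box 48 bases before it. No motif of one kind overlapped one of the other.
Chrna1: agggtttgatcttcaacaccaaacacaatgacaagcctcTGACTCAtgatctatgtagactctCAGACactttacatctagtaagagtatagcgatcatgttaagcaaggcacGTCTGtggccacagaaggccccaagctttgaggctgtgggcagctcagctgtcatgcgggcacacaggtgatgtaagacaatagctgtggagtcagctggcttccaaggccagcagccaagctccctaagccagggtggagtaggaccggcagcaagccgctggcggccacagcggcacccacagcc
Ror2: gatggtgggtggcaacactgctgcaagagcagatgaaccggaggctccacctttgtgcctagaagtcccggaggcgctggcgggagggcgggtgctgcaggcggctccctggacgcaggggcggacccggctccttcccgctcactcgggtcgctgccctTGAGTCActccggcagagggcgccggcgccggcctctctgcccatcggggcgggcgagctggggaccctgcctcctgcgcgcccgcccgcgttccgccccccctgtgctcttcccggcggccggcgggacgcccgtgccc
Tgfb2: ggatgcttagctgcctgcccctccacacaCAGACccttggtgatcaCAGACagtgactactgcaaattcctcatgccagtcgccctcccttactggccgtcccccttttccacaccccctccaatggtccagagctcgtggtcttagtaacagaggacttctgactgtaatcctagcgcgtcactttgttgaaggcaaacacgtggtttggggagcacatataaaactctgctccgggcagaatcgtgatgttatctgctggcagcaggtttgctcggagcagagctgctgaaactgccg
Cuzd1: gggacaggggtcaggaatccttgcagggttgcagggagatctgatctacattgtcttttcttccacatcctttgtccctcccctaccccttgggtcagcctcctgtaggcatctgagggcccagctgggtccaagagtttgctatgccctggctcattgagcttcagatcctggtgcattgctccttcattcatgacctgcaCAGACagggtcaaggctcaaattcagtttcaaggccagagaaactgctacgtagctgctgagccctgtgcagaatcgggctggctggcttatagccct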

How the data were processed

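RNA-seq values of 15 samples were deposited in 1 table of normalized counts, a signal per gene that the authors made from reads of a SMART-Seq v4 low-input library with Salmon 1.4.0 on GRCm39 and DESeq2 1.32.0, which divides estimated counts by a size factor per sample. Whole reads could not be recovered from the values, so no count test was run, in place of which limma 3.58.1 (R 4.3.3) was used on log2(normalized count + 1). Groups came from the labels. Genes with a mean of at least 10 over the 7 control samples were tested with lmFit and eBayes with a trend, without a block, and called where the p-value adjusted by Benjamini and Hochberg's method was below 0.01 with a change of over 1.4-fold either way. The fit for the difference between genotypes held all 4 groups. The script was tested on simulated data.

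Label numbers were taken to pair the samples, since deviations from group means correlated at 0.427, 0.414 and 0.365 in the 3 pairs that share a number. Vehicle replicate 3 also correlated at 0.355 with A83-01 replicate 4, which has another number. The number of control replicate 1 also stands on a cKO label. The blocked fit is therefore given as an alternative. The labels say only that organoids came from different mice, and do not say whether samples that share a number share a mouse, so p-values measure the spread between these samples. The precision is limited by 3 and 4 samples a group, and the depth in reads per sample is not in the table.

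The members and gene lists were chosen with earlier results of these data known. Named genes are the inhibitor's targets with *Smad2* and *Smad3*, the 15 largest rises and 15 largest falls among called genes whose samples do not overlap and whose higher group has a mean of at least 100, the 10 lowest adjusted p-values, the 10 highest means, up to 6 called members of each list, or the 3 members with the highest means where fewer passed, and the 5 best supported differences between genotypes in each direction. Symbols were matched for 16697 of 16729 identifiers. Alternatives were the block, other filters, pseudocounts, scalings and thresholds, sample weights, a covariate for the number series and the omission of each sample. Promoter windows are from RefSeq on GRCm38.p6, and no gene coordinates of the authors' build are given. A tested member of the TGF-beta induced list that was not called is not reported here by name.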

Additional observations from a re-analysis of the deposited data

Results flagged for a closer look

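In 5 named genes, 1 of the 4 A83-01 samples of control organoids stood apart from the other 3. The gap to the nearest sample, as a share of the group's whole range, was 1 for *Spink12*, 0.919 for *Kcng1*, 1 for *Tnc*, 1 for *Has2* and 0.908 for *Fzd10*. With continuous values such a gap arises by chance in about 1 of 20 groups, and many groups were examined. A share of 1 stands where the other 3 samples were at 0, to which that rate does not apply. It may not apply to *Kcng1* either, where A83-01 replicates 2, 3 and 4 read 0.979, 0.848 and 0.907. Values this low can hardly be taken as continuous. A83-01 replicate 2 was the only A83-01 sample above 0 for *Spink12*, at 11.3, for *Tnc*, at 6.41, and for *Has2*, at 3.13.

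For 31 named genes the effect of A83-01 differed between control and *Smad2/3* cKO organoids in the test of the difference itself, at the thresholds used for calls. On the log2 scale, control minus cKO, the difference was above 0 for 26 genes. It was 8.38 for *Car4*, 7.23 for *Slc46a2*, 6.96 for *Akr1b7*, 6.76 for *Nptx1*, 6.75 for *Cuzd1*, 6.65 for *4930539E08Rik*, 6.38 for *Havcr1*, 6.04 for *Hsd11b1* and 5.77 for *Tgfb2*. It was 5.62 for *Napsa*, 5.34 for *Slc17a4*, 5.20 for *Tshr*, 4.54 for *Cyp17a1*, 4.31 for *Akr1c18*, 4.28 for *Defb1*, 4.02 for *Id4*, 3.60 for *Prl6a1* and 3.52 for *Krt6b*. It was 3.43 for *Csf1*, 3.39 for *Selenop*, 3.27 for *Gpx3*, 3.26 for *Gjb1*, 3.19 for *Abcb1b*, 2.85 for *Lrat*, 2.30 for *Aqp8* and 1.97 for *Tnfrsf19*. The difference was below 0 for 5 genes, at -9.61 for *Fn1*, -6.85 for *Slc6a2*, -6.46 for *Kcng1*, -4.71 for *Chrna1* and -2.47 for *Gstm7*. The values of *Slc6a2*, *Kcng1*, *Cyp17a1* and other genes listed at 0 in a whole group depend on the pseudocount and are no measure of a fold. None of these differences was called with the label number as a replicate block.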

How the results depend on the processing

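None of the 83 named calls changed its direction under the alternatives run, and the other called genes were not checked for this. Some genes that were not called did when 1 sample was left out, such as *Krt18*, whose log2 difference ran from -0.23 to 0.08, and *Rrm1*, from -0.03 to 0.24. The 155 genes called higher became 397 with all 4 groups in the fit, 280 with sample weights, 474 at an adjusted p below 0.05, 103 without the eBayes trend and 78 without the filter on low values, and ran from 37 to 158 with 1 sample left out. The 140 called lower became 258, 302 and 481 under the first 3 of these, 212 with the number series as a covariate and 68 without the filter, and ran from 12 to 154 with 1 sample left out. With the label number as a replicate block 211 were higher and 188 lower, 7 of the 83 named calls were lost and 3 of 67 were gained, and no other call of a gene named by the rule changed. *Acvrl1* and *Wnt7b*, named after their values were seen, also passed with it. The 72 differences between genotypes became 0 with the replicate block, 127 with sample weights and 208 at an adjusted p below 0.05, and ran from 39 to 77 with 1 sample left out. The pseudocount moves the fold of genes near 0, and 16 of the 83 named calls did not pass with a pseudocount of 0.1. The causes of these shifts were not tested.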
